A study of Homo sapiens with 4 samples.

Results

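Imprinted genes outside the DLK1-MEG3 locus were examined in H1, a human embryonic stem cell (hESC) line, in the naïve and in the primed state. The set held 44 genes of 20 imprinted loci on 12 chromosomes, chosen by symbol among 62218 annotated genes, and a gene was represented by its isoform of highest mean count. All 44 were found, with 786 annotated isoforms, of which 530 had counts that differed from those of every other isoform of the gene. The study sequenced cDNA from wild-type H1 cells on the Nanopore platform as 4 libraries, 2 of naïve hESCs grown in FINE medium and 2 of primed hESCs grown in TesR. Naïve cells were derived from the primed H1 cells with a medium of kinase inhibitors, LIF, activin A and bFGF at low oxygen, while primed cells were kept in mTeSR1 on Matrigel. Both states come from 1 line, medium and oxygen change together with the state, and nothing in the labels says that the replicates were separate derivations, so p-values measure the spread between these libraries.

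An imprinted gene is transcribed mainly from the copy inherited from 1 parent. The choice is kept by DNA methylation laid down in the germ line at an imprinting control region, which then directs the silencing of whole groups of neighbours, often through a long non-coding RNA. After fertilization the methylation is protected by zinc finger proteins such as ZFP57 and ZNF445, which recruit TRIM28. Many of the proteins encoded by imprinted genes act on fetal and placental growth, and naïve hESC cultures are known for the loss of methylation at imprinting control regions. The counts carry no allele, so what follows is the total level of each gene. By the expressed copy known from other work, 22 members are paternally expressed, 11 are maternally expressed, 6 depend on the isoform and 5 are disputed.

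Promoter sequences of 6 members are given here because these members differed strongly between the states, lie at the SNRPN locus or hold the motif that ZFP57 binds when methylated, TGCCGC, read on both strands and therefore also as GCGGCA. RefSeq sequences (GRCh38.p14) of the 250 bases before annotated starts were available for 29 of the 44 members. Of all 35116 such windows 12.7% held the motif, against 16 of 59 windows of members, or 27.1%, in 14 members. The window shared by HYMAI and PLAGL1 was counted for each gene. The motif contains a CpG, and the shares were not matched for CpG content. The median over all windows was 11 CpG, and member windows held from 1 to 42. The difference between the shares was not tested. Other members also meet the terms for printing and are not shown. Of the SNRPN locus these include MKRN3, SNHG14 and UBE3A without a match and ATP10A with 1. For a member with several windows the one with most matches was printed, and the other GNAS windows held no match. Capitals mark the motif, and bases covered by an exon of a protein-coding gene shown here were left out. A match is a description of the letters and not of binding.
H19, chr11:2001267-2001516 (minus strand), inside the longest annotated H19 isoform, with 0 matches: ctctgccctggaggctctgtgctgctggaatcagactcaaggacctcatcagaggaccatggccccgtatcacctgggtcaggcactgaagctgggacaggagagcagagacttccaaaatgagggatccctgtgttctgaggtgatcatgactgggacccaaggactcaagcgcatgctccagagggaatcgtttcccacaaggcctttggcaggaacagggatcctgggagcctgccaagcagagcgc
SNRPN, chr15:24954737-24954934 (plus strand), before the main start, with 1 match: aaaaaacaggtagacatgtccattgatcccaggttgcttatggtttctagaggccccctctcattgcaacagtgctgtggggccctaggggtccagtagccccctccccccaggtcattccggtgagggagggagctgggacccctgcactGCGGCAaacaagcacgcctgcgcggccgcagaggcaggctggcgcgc
MAGEL2, chr15:23647868-23648117 (minus strand), with 0 matches: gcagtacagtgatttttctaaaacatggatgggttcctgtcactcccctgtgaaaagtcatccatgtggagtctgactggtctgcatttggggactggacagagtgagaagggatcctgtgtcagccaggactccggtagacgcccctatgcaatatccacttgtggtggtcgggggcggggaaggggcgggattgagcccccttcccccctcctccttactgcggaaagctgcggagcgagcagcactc
NDN, chr15:23687306-23687555 (minus strand), with 1 match: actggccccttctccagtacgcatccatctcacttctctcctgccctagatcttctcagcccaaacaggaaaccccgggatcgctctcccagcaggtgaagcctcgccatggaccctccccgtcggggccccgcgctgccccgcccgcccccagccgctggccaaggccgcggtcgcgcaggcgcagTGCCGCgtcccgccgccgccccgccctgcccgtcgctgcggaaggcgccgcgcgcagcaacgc
GNAS, chr20:58839498-58839717 (plus strand), before the NESP55 start, with 1 match: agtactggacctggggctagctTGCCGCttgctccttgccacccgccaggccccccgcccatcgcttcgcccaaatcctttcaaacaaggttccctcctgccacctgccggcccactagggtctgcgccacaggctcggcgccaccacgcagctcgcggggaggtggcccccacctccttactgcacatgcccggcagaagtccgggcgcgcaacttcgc
NAP1L5, chr4:88697830-88698079 (minus strand), with 2 matches: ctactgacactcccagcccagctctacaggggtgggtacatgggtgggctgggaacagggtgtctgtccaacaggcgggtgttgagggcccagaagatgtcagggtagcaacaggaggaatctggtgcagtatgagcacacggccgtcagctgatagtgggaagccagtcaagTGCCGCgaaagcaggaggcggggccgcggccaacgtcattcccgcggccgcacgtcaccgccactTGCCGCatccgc

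Library totals ranged from 129276054 to 161548901 counts, where an alignment counts for every transcript span it overlaps. Levels are given as raw counts in the order naïve replicate 1, naïve replicate 2, primed replicate 1 and primed replicate 2, and as CPM, the count relative to the library size after edgeR's TMM scaling. Positive log2 fold changes are higher in primed cells. Marker genes followed the labels, with 8 of 8 naïve markers lower and 8 of 8 primed markers higher in primed libraries. The naïve marker KLF17 had a log2 fold change of only -0.41, which was 0.23 with library size scaling and was not called without primed replicate 1 (-0.22) or primed replicate 2 (-0.26). Markers of trophoblast, the lineage of the placenta, were also high in the naïve libraries. Of 14 such markers 13 were tested and 12 were lower in primed cells, and their summed level was 2170 and 2520 CPM in the naïve libraries against 10.1 and 9.95 CPM in the primed ones. The hormone subunit gene CGA had 35747, 47550, 0 and 1 counts, VGLL1 was at 0 in both primed libraries, KRT7 was not called (0.37), and the trophoblast stem cell factor CDX2 had 2 to 4 counts in every library. Of 6 amnion markers 5 were lower in primed cells, with summed levels of 21.3 and 22.8 CPM in the naïve and 5.75 and 4.53 CPM in the primed libraries. Of 7 endoderm markers 5 were tested, 3 were higher and 1 lower in primed cells, with summed levels of 3.82 and 4.86 CPM in the naïve and 8.53 and 8.85 CPM in the primed libraries. AFP had 1, 1, 51 and 47 counts and APOA1 had 3, 4, 118 and 133. GATA6, the endoderm marker called lower, had 77, 99, 16 and 37 counts and a log2 fold change of -2.03. Of 4 neural markers 2 were tested and both were higher in primed cells, with DCX at 7, 4, 81 and 70 counts and PAX6 at 3, 4, 18 and 10, a call that DESeq2 did not make, and NEUROD1 was at 0 in every library. The summed neural level was 0.434 and 0.314 CPM in the naïve and 3.36 and 2.65 CPM in the primed libraries. Of 4 pluripotency markers 2 were higher and 1 lower, and POU5F1 was not called. The part of these other cell types in the results on the members was not tested. CGA and VGLL1 reached 10 counts in the naïve libraries alone, and AFP, APOA1, DCX and PAX6 in the primed libraries alone. KLF17, KRT7, CDX2, NEUROD1 and POU5F1 were chosen after their values were seen. In bulk RNA, fewer cells of a type and less RNA per cell cannot be told apart.

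Of the 44 members 37 had at least 10 counts in at least 2 libraries and were tested. Of these, 18 were higher and 9 lower in primed cells at an adjusted p under 0.05. These 27 are 73.0% of the members tested, against 70.0% of all 27634 genes tested, a share near the background. Higher calls made up 37.4% of all genes and lower calls 32.6%. The median log2 fold change was 0.53 over the tested members and 0.08 over all genes, and 6 members (H19, PEG3, ZIM2, MKRN3, PLAGL1 and NAP1L5) reached 10 counts in 1 state alone, so that the filter itself selected them for a difference. Of the other 31, 17 were higher and 5 lower, or 71.0%. By expressed copy, 9 paternal members were higher and 4 lower among 17 tested, and 4 maternal members were higher and 4 lower among 9 tested. With library size in place of TMM the median over all genes moved from 0.08 to 0.72, and 27 members were then higher and 7 lower.

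**Figure D1:**
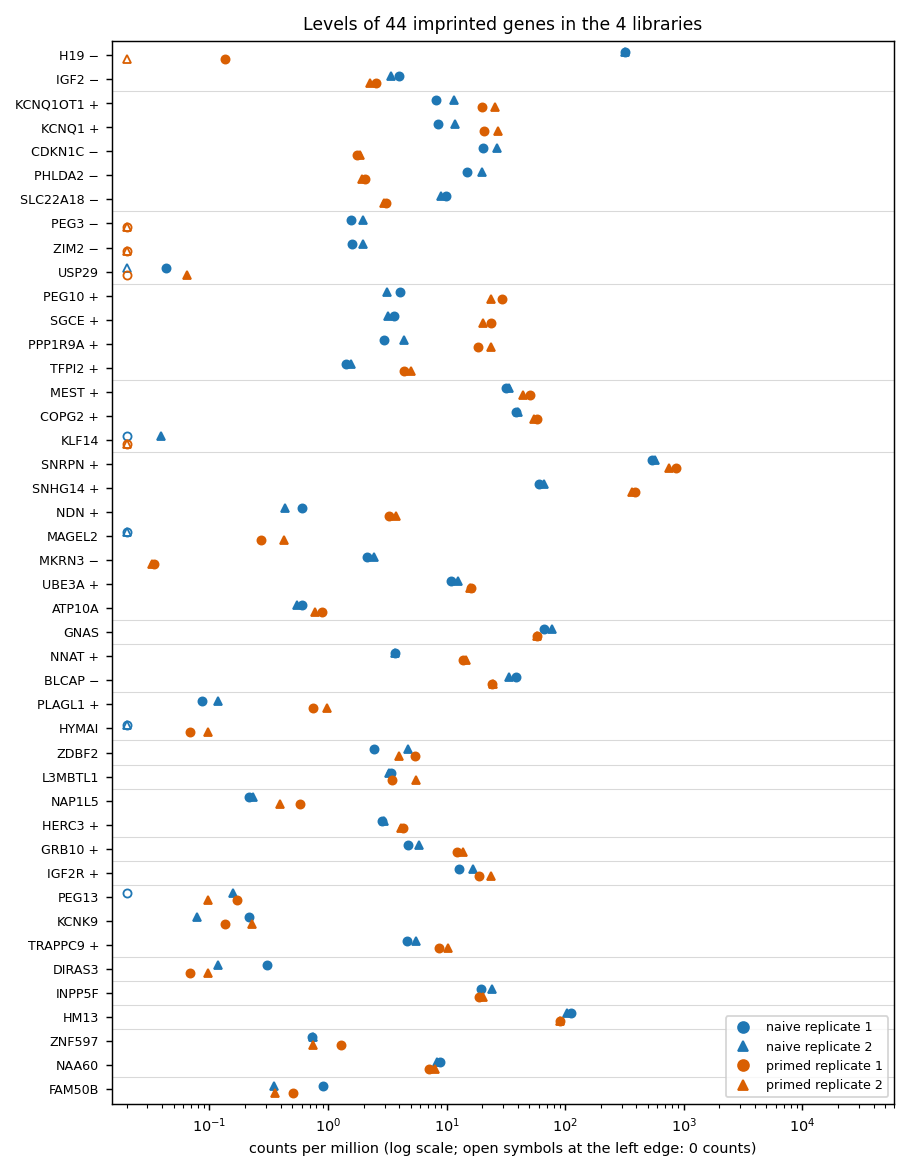
Level of each of the 44 members in the 4 libraries in CPM on a log axis, ordered by locus with grey lines between loci; a plus or minus beside a name marks a call of higher or lower in primed cells under TMM scaling. H19, PEG3, ZIM2 and MKRN3 are at or near 0 in primed libraries, while PEG10, SGCE, SNHG14, NDN and NNAT lie well to the right of the naïve libraries; the minus of IGF2 and BLCAP turns to a small positive value with library size scaling.

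At the H19-IGF2 locus, H19 was the member with the largest difference. H19 encodes a maternally expressed non-coding RNA that is abundant in placenta and fetal tissue (chr11:1995176-2001470, minus strand). Naïve cells gave 7356 and 8192 counts and primed cells 4 and 0. Its level fell from 320.0 ± 1.57 CPM to 0.0680 ± 0.0962 CPM (SD, n = 2), and the ratio of pooled counts was 4810 with a 95% counting interval of 1880 to 17700 (edgeR adjusted p = 1.55e-32). H19 passed the count filter through the naïve libraries alone. Both naïve libraries held nearly the same level, and the primed libraries were close to nothing. IGF2, the paternally expressed growth factor beside it, had 91, 86, 74 and 69 counts, with a log2 fold change of -0.62 ± 0.24 (SE, adjusted p = 0.0227) that was 0.02 with library size scaling. The IGF2 call was lost without naïve replicate 1 (-0.56), primed replicate 1 (-0.53) or primed replicate 2 (-0.37). The sign of the small IGF2 value thus depended on the scaling, whereas that of H19 did not.

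The KCNQ1OT1 locus lies further along the same chromosome, and 3 of its maternally expressed genes were lower in primed cells, while the maternally expressed KCNQ1 and the paternal non-coding RNA were higher. CDKN1C, an inhibitor of cyclin-dependent kinases that restrains growth, had 467 and 682 counts against 52 and 57, a log2 fold change of -3.69 ± 0.20 (adjusted p = 1.97e-20). PHLDA2, which limits placental growth, had 340 and 506 against 61 and 59 counts, a log2 fold change of -3.11 ± 0.20 (adjusted p = 1.38e-17). SLC22A18, a membrane transporter, had 227 and 229 against 91 and 91 counts (log2 fold change -1.63, adjusted p = 1.59e-09). In all 3 genes both naïve libraries exceeded both primed ones. In CPM this also held for members that were not called, such as GNAS, HM13 and NAA60, so it does not set these 3 genes apart. The share of all genes for which it holds was not taken. A link to the trophoblast markers was not tested.

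KCNQ1OT1, the antisense RNA whose transcription silences these neighbours on the paternal copy, had 187, 295, 582 and 784 counts, a log2 fold change of 1.20 ± 0.17 (adjusted p = 7.02e-08). It has no introns of its own and strand was ignored, so intronic reads of KCNQ1 may be part of it. The potassium channel gene KCNQ1 encloses it and had 194, 301, 616 and 838 counts, of which 94.8% lay on KCNQ1OT1. Without those alignments 7, 6, 34 and 54 counts remained, and the log2 fold change went from 1.25 to 2.43 (adjusted p = 3.49e-06). This remainder passed the count filter through the primed libraries alone, so that the filter itself selected it for a difference.

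PEG3 and the overlapping ZIM2 had counts in the naïve libraries alone. PEG3, a paternally expressed zinc finger gene (chr19:56810077-56840726), had 36 and 50 counts in naïve and 0 in both primed libraries. With the floor of 3 counts per library it was at least 17.6-fold lower in primed cells (adjusted p = 5.82e-12), and it passed the count filter through the naïve libraries alone. ZIM2 shares the span of PEG3 and 98.9% of its count lay there, so its 37, 50, 0 and 0 counts are not a separate measurement. USP29 of the same locus had 1, 0, 0 and 2 counts and was not tested.

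Genes around PEG10 were called higher in primed cells in 4 of 4 cases, against 37.4% of all genes tested. PEG10 and SGCE overlap each other, so these cases are not independent. PEG10, a paternally expressed gene derived from a retrotransposon and needed for placenta (chr7:94656325-94669695), had 93, 80, 864 and 729 counts, a log2 fold change of 2.89 ± 0.19 (adjusted p = 6.82e-18). SGCE, the sarcoglycan gene that shares its promoter region head to head, had 83, 81, 694 and 629 counts (log2 fold change 2.70, adjusted p = 4.98e-17). The SGCE isoform free of any overlap, SGCE-295, had 26, 33, 209 and 229 counts, with a log2 fold change of 2.63. PPP1R9A, a synaptic scaffold gene whose imprint is tissue dependent, had 69, 111, 543 and 724 counts (2.51, adjusted p = 2.20e-15), and its overlap-free isoform PPP1R9A-203 had 13, 37, 97 and 84 (1.60). TFPI2, a protease inhibitor with high expression in placenta, had 33, 40, 130 and 153 counts (1.64, adjusted p = 2.69e-07). PEG10 and TFPI2 were higher in primed cells, and 12 of the 13 trophoblast markers tested were lower. A link between these genes and the markers was not tested.

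At the MEST locus, the paternally expressed hydrolase gene MEST had 732, 854, 1478 and 1364 counts, a log2 fold change of 0.54 ± 0.15 (adjusted p = 0.00134). COPG2, a coatomer subunit gene on the other strand, had 881, 1015, 1700 and 1684 counts (0.53, adjusted p = 0.00131), and its end overlaps that of MEST. The isoform COPG2-201, which stops before MEST, had 352, 390, 532 and 621 counts and a log2 fold change of 0.35 (adjusted p = 0.0508). The intronless gene KLF14 had 1 count in all.

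The SNRPN locus on chromosome 15, the region lost or silenced in Prader-Willi syndrome, held both higher and lower members. SNRPN encodes a splicing protein (chr15:24823647-24978582) and had 12499, 14490, 25208 and 22943 counts, a log2 fold change of 0.53 ± 0.14 (adjusted p = 9.17e-04). However, 62.1% of that count lay on RPL5P1, a processed pseudogene of the ribosomal protein gene RPL5 inside an intron, with 9615, 11718, 13428 and 11879 counts. RPL5P1 itself had a log2 fold change of -0.05, as had RPL5, and reads counted at every place they align cannot be split between them. Without the pseudogene SNRPN had 2884, 2772, 11780 and 11064 counts, and its log2 fold change was 1.70 ± 0.14 (adjusted p = 6.56e-14). The isoform SNRPN-202, which begins after the pseudogene, had 2774, 2648, 11648 and 10880 counts. It starts next to the SNRPN window with 1 motif match printed above, and its log2 fold change was 1.76.

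SNHG14 continues downstream of SNRPN as a long RNA that hosts small nucleolar RNAs and runs antisense to UBE3A. Its best-covered isoform had 1384, 1705, 11471 and 11178 counts, a log2 fold change of 2.57 ± 0.15 (adjusted p = 1.70e-19). The values differed along the transcript, and this difference between stretches was not tested. SNHG14-217, which overlaps no other gene 22 to 42 kb from the start, had 74, 113, 1516 and 1525 counts and a log2 fold change of 3.74 ± 0.18. SNHG14-223, also free of overlap, 131 to 142 kb from the start, had 131, 210, 647 and 597 counts and a log2 fold change of 1.59 ± 0.18. SNHG14-223 had the higher count of the pair in the naïve libraries, and SNHG14-217 in the primed ones. In the later SNORD115 stretch, SNHG14-204 had 0, 1, 1 and 3 counts and SNHG14-201 had 1, 1, 0 and 1. An isoform 398 to 441 kb from the start had 128, 173, 293 and 248 counts (log2 fold change 0.56). It lies inside UBE3A and strand was ignored in counting, so reads of the sense and antisense gene cannot be told apart there.

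**Figure D2:**
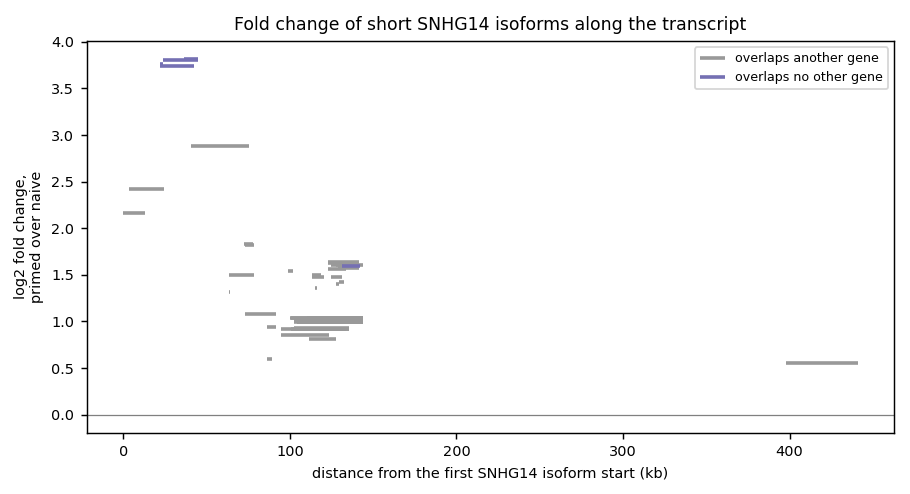
Log2 fold change, primed over naïve, of the 61 tested SNHG14 isoforms with spans under 45 kb against the distance in kb from the first SNHG14 start; each bar is the span of 1 isoform, purple for the 5 that overlap no other gene. Bars near 22 to 42 kb reach 3.74 and above, those past 100 kb lie between 0.81 and 1.64, and the bar inside UBE3A is at 0.56; spans overlap, so bars are not independent.

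Upstream at the same locus, NDN, a paternally expressed MAGE family gene that restrains growth in neurons (chr15:23685400-23687305), had 14, 11, 96 and 114 counts, a log2 fold change of 2.75 ± 0.32 (adjusted p = 6.02e-10). MAGEL2, its neighbour of the same family, was at 0 in both naïve libraries and had 8 and 13 counts in the primed ones, which is at least 2.81-fold higher with the floor of 3 counts per library, and it was not tested. MKRN3, a ubiquitin ligase gene known for restraining puberty, went the other way. It had 49, 62, 1 and 1 counts, a pooled ratio of 68.7 in favour of naïve cells with a 95% counting interval of 18.6 to 574.0 (adjusted p = 9.89e-13), and its short isoform MKRN3-201 had 41, 48, 0 and 0. MKRN3 passed the count filter through the naïve libraries alone.

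UBE3A, the maternally expressed ubiquitin ligase gene affected in Angelman syndrome, had 251, 317, 476 and 483 counts (log2 fold change 0.45, adjusted p = 0.0124). Without alignments that also touch SNHG14 it had 123, 144, 183 and 235 counts (0.34, adjusted p = 0.119), and it was not called by DESeq2 or without naïve replicate 1 (0.30, adjusted p = 0.204). ATP10A, a lipid flippase gene, had 14, 14, 26 and 24 counts (0.53, adjusted p = 0.234).

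GNAS makes several products from successive promoters, of which the maternal NESP55 and the paternal XLαs start upstream of the widely used Gsα, a G protein subunit. Its whole count of 1539, 1984, 1720 and 1775 had a log2 fold change of -0.31 ± 0.14 (adjusted p = 0.0512), and the call turned with the processing. It was higher under library size scaling (0.32, adjusted p = 0.0431), and lower in DESeq2 (-0.36), with summed isoforms (-0.43), with the overlap-free isoform (-0.43) and without naïve replicate 1 (-0.48). The upstream stretches, chosen after the values were seen and not tested, went the other way. Alignments over the NESP55 stretch that miss every later start numbered 7, 6, 174 and 173, or 0.270 ± 0.0483 CPM in naïve and 5.78 ± 0.190 CPM in primed libraries (SD, n = 2). Those over the XLαs stretch numbered 3, 5, 19 and 26. GNAS-211, an isoform from the Gsα start, had 1512, 1957, 1514 and 1569 counts, against 1720 and 1775 for the whole gene in the primed libraries. Its span also takes in the exons that upstream products share with it, so this is not a count of Gsα starts. The printed GNAS window is the one before NESP55. An antisense gene also covers the upstream stretches, and the count without strand does not separate them.

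INPP5F, a phosphoinositide phosphatase gene with a short paternally expressed isoform from an internal promoter, showed a shift between its upstream and downstream isoforms. The whole gene had 449, 619, 555 and 619 counts, a log2 fold change of -0.16 (adjusted p = 0.351) that was 0.47 with library size scaling and 0.05 without primed replicate 1. INPP5F-201, over the upstream part, had 275, 370, 135 and 127 counts (log2 fold change -1.58 ± 0.19, adjusted p = 3.06e-10). INPP5F-206, over the downstream part and free of overlap, had 107, 152, 352 and 447 counts (1.34 ± 0.19, adjusted p = 2.36e-08). The parts moved in opposite directions, with no overlap between states in either. Members without a call, such as GNAS and HM13, also had no overlap in CPM.

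**Figure D3:**
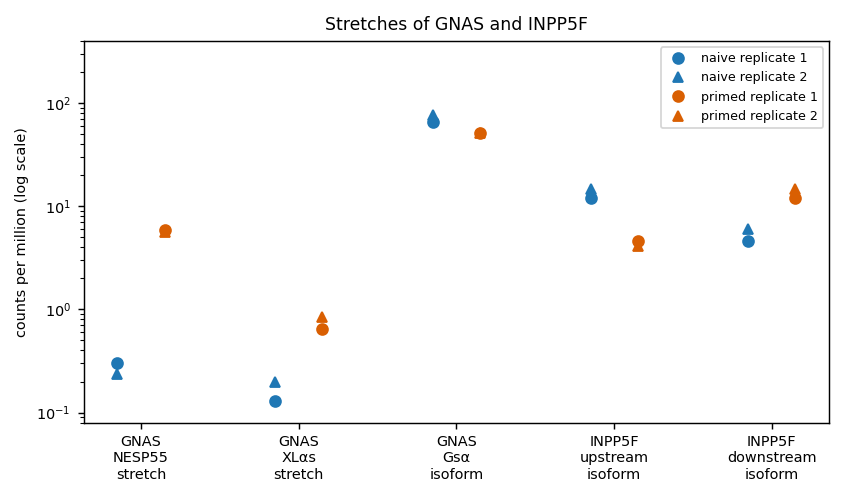
Level in CPM on a log axis of 2 upstream stretches of GNAS, its Gsα isoform GNAS-211, and the upstream (INPP5F-201) and downstream (INPP5F-206) isoforms of INPP5F, 1 point per library. Primed points lie above naïve points for the NESP55 and XLαs stretches and for INPP5F-206, and below them for INPP5F-201; the stretches were chosen after the values were seen.

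Differential isoform usage (DIU) was tested for 714 isoforms of the members, as the share of each isoform in the summed length-scaled counts of its gene, with dIF as the change in that share. Of all 159577 isoforms tested 0.556% were called. Among the members 2 were called, 1 in each direction. INPP5F-209, an upstream isoform with 173, 258, 81 and 81 counts, went from 29.0% to 10.4% (dIF = -0.185, adjusted p = 8.34e-06). SNHG14-212, near the start of the RNA with 1327, 1599, 9842 and 9208 counts, went from 19.9% to 32.9% (dIF = 0.130, adjusted p = 2.08e-11). Neither passed the dIF threshold when counts were not divided by exonic length, and since counts cover whole spans these shares are not shares of molecules. By expression, 353 of 479 distinct member isoforms tested were called, 265 higher and 88 lower. Of all isoforms tested 68.9% were called, but there isoforms with identical counts were not merged, so the shares are not in like units. With library size scaling 343 member isoforms were higher and 42 lower.

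At the NNAT locus, the paternally expressed gene NNAT, which encodes a small membrane protein of neurons, had 84, 94, 402 and 450 counts, a log2 fold change of 1.95 ± 0.19 (adjusted p = 2.24e-12). It lies within an intron of BLCAP, a gene first found reduced in bladder cancer. BLCAP had 881, 863, 707 and 754 counts (log2 fold change -0.57, adjusted p = 9.12e-04), which became 0.07 with library size scaling and lost its call without primed replicate 1 (-0.38) or primed replicate 2 (-0.42). Without the alignments on NNAT it had 797, 769, 305 and 304 counts and a log2 fold change of -1.67 ± 0.16 (adjusted p = 1.74e-12), and the overlap-free isoform BLCAP-203 gave -1.85. The nested gene was higher and the host lower in primed cells, and the whole BLCAP count changed less than either.

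**Figure D4:**
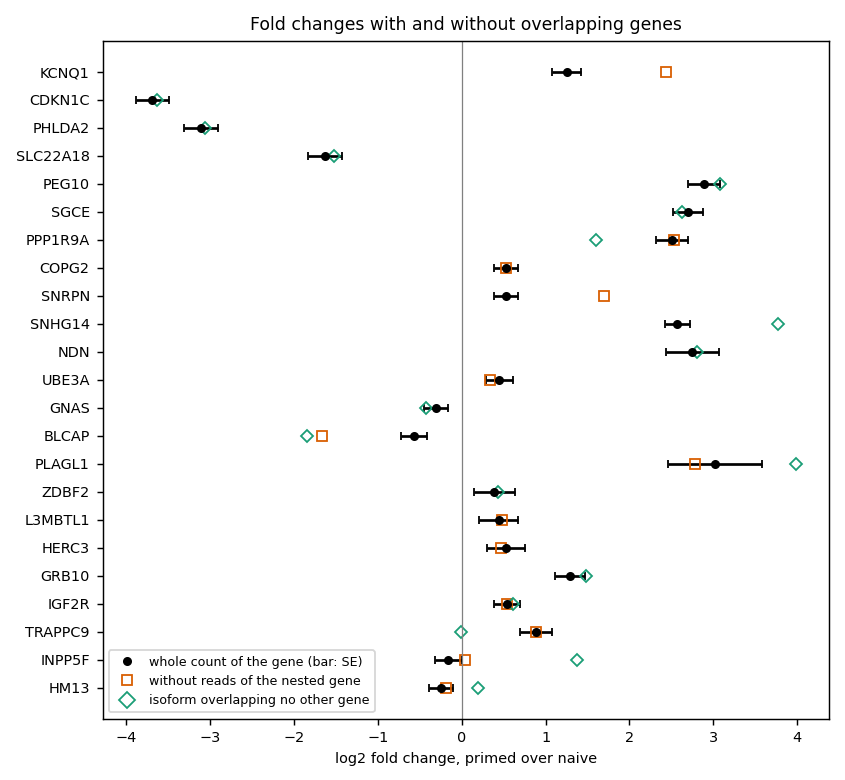
Log2 fold change, primed over naïve with TMM scaling, of members for which reads of overlapping genes could be set aside; black points are the whole count with its SE, orange squares the count without the nested gene, and green diamonds the isoform that overlaps no other gene. SNRPN moves from 0.53 to 1.70, KCNQ1 from 1.25 to 2.43 and BLCAP from -0.57 to -1.67. The KCNQ1 count without the nested gene passed the count filter through the primed libraries alone. INPP5F (-0.16), TRAPPC9 and HM13 (-0.25) change sign with the overlap-free isoform. GNAS, BLCAP, INPP5F and HM13 change sign with library size scaling.

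PLAGL1, a zinc finger growth regulator linked to transient neonatal diabetes, had 2, 3, 22 and 30 counts (log2 fold change 3.02, adjusted p = 7.98e-06) and passed the count filter through the primed libraries alone. Its pooled ratio was 8.41 in favour of primed cells with a 95% counting interval of 3.38 to 27.0, and HYMAI, the non-coding RNA from the same promoter, had 0, 0, 2 and 3 counts. GRB10, an adaptor that dampens insulin and IGF receptor signals, had 109, 150, 360 and 422 counts (1.29, adjusted p = 4.71e-08). IGF2R, the receptor that clears IGF2, had 292, 422, 554 and 726 counts (0.54, adjusted p = 0.00369), a call lost without naïve replicate 1 (0.30, adjusted p = 0.184).

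TRAPPC9, a trafficking complex gene, had 106, 142, 253 and 313 counts (0.89, adjusted p = 7.94e-05), but its overlap-free isoform TRAPPC9-211 had 27, 37, 43 and 33 counts and a log2 fold change of -0.01. PEG13 and KCNK9 of the same locus had 0 to 5 and 2 to 7 counts and were not tested. HERC3, a HECT domain gene, had 66, 76, 126 and 127 counts (0.53, adjusted p = 0.0383), whereas HERC3-202 of a second gene entry with the same symbol had 55, 70, 69 and 68. The HERC3 call was lost without naïve replicate 1 (0.44), without naïve replicate 2 (0.50) and without the reads on NAP1L5 (0.47). NAP1L5, the nucleosome assembly gene in its intron, had 5, 6, 17 and 12 counts (1.08, adjusted p = 0.0608). The NAP1L5 window holds 2 motif matches.

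The remaining members did not pass the test. HM13, a signal peptide peptidase gene, had 2607, 2621, 2655 and 2785 counts (-0.25, adjusted p = 0.108), with 0.39 under library size scaling. MCTS2, the paternally expressed retrogene inside it, had 136, 127, 33 and 22 counts (-2.56, adjusted p = 3.87e-11), but its parent MCTS1 fell likewise (-1.76) and reads may be shared between them. ZDBF2 had 56, 121, 161 and 122 counts (0.39, adjusted p = 0.153), a value that was -0.07 without naïve replicate 1 and passed the test without naïve replicate 2 (0.90) or primed replicate 2 (0.76). L3MBTL1, a chromatin reader, had 78, 83, 103 and 168 counts (0.44, and called without primed replicate 1 at 0.89), and ZNF597 had 17, 19, 38 and 23 (0.45). NAA60, an acetyltransferase gene, had 202, 213, 209 and 247 counts (-0.17, with 0.47 under library size scaling and 0.08 without primed replicate 1). FAM50B had 21, 9, 15 and 11 counts (-0.52, with 0.12 under library size scaling, 0.23 without naïve replicate 1 and a call at -1.12 without naïve replicate 2). DIRAS3, a small GTPase, had 7, 3, 2 and 3 and was not tested.

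Genes that set, keep or erase imprints were described beside the members, as background to their control regions. Counts by direction mix these roles. Of 34 such genes 32 were tested, 8 were higher and 18 lower in primed cells, with a median log2 fold change of -0.45. Over all genes tested 37.4% were higher and 32.6% lower, with a median of 0.08, and the difference from these values was not tested. With library size scaling 13 genes of the list were higher and 10 lower, so the more frequent direction turned with the scaling. ZFP57 had 470, 437, 14 and 14 counts, a log2 fold change of -5.32 ± 0.25 (adjusted p = 7.47e-23). ZNF445, which shares its task, had 138, 165, 251 and 277 counts (0.50, adjusted p = 0.0159), and TRIM28 had 393, 368, 645 and 616 (0.42, adjusted p = 0.0175), both calls lost in DESeq2 and without naïve replicate 2 (0.49 and 0.24), and that of ZNF445 also without naïve replicate 1 (0.38). DNMT3L, a cofactor of the methyltransferases in germ cells, had 4540, 3798, 4 and 2 counts, and DPPA3, which hinders maintenance of methylation, had 3469, 3745, 10 and 6. DNMT3L passed the count filter through the naïve libraries alone.

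Among the maternal effect genes of the same list, KHDC3L, NLRP7, NLRP2 and OOEP were lower in primed cells and TLE6 was higher (20, 12, 43 and 61 counts, 1.38, adjusted p = 6.42e-04), while NLRP5 and PADI6 were not tested. KHDC3L had 1134 and 1050 counts in naïve and 0 in both primed libraries, at least 452-fold lower. It passed the count filter through the naïve libraries alone. NLRP7 had 5548, 5382, 102 and 136 counts and NLRP2 had 3883, 4140, 42 and 54. The maintenance methyltransferase DNMT1 had 1607, 2275, 1575 and 1585 counts (-0.59, with 0.04 under library size scaling and no call at -0.41 without primed replicate 2), and its partner UHRF1 had 281, 332, 232 and 243 (-0.67, and -0.04 with no call under library size scaling). ZNF445, TRIM28, DNMT1, UHRF1, OOEP and TLE6 were chosen after their values were seen.

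**Figure D5:**
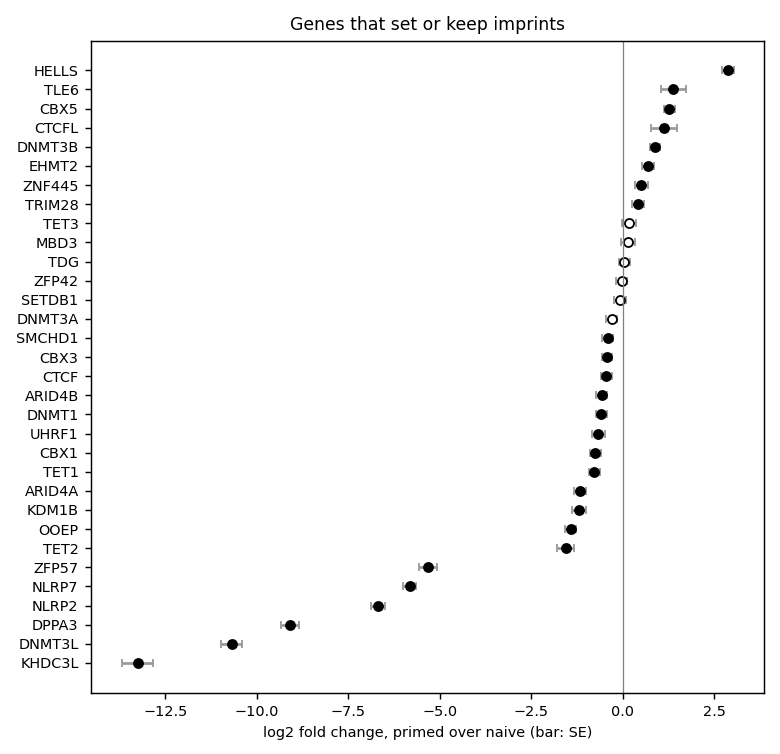
Log2 fold change with its SE, primed over naïve under TMM scaling, of the 32 tested genes that set, keep or erase imprints. Filled points were called and open points were not. ZFP57 (-5.32), NLRP7, NLRP2, DPPA3, DNMT3L and KHDC3L (-13.26) stand far to the left, and the value of DNMT1 (-0.59) is 0.04 with library size scaling.

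In the insulin-like growth factor pathway, to which IGF2, IGF2R and GRB10 belong, 13 of 15 further genes were tested, 9 were higher and 2 lower in primed cells. Of all genes tested 37.4% were higher and 32.6% lower, and the difference from these shares was not tested. IGFBP4, a binding protein that holds IGFs from their receptor, had 4, 5, 368 and 548 counts (6.32 ± 0.32, adjusted p = 1.16e-21). IGFBP6 had 4, 4, 130 and 118 counts (4.61), IRS2 had 6, 18, 88 and 100 (2.66), IGFBP2 had 166, 153, 534 and 1171 (2.10) and IGFBP5 had 5, 8, 29 and 38 (2.04). IGFBP4, IGFBP6 and IGFBP5 passed the count filter through the primed libraries alone, so that the filter itself selected them for a difference. IGFBP3 went the other way, with 244, 270, 47 and 49 counts (-2.72, adjusted p = 6.81e-15).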

How the data were processed

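Nanopore cDNA libraries of H1 naïve and primed hESCs were analysed, 2 replicates per state. The authors aligned reads to GRCh38 with minimap2 and deposited raw counts from featureCounts 2.0.0 over whole transcript spans of Ensembl annotation 105. Introns were included, strand was ignored, and an alignment was counted for every span it overlapped and at every place it aligned. Intronic and nested genes, pseudogenes and antisense genes therefore share counts. Per the file headers, the deposited counts are not normalized.

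Isoforms were matched to GENCODE 44 by identifier (242542 of 244825). Each gene took the values of its isoform of highest mean. A gene entered the test when 2 or more of the 4 libraries held 10 counts or more. The test was edgeR 4.0.16 (TMM, quasi-likelihood, two-sided, R 4.3.3), with Benjamini-Hochberg adjustment over all genes tested. The SE was the log2 fold change divided by the root of the F statistic. Isoforms were tested in the same way, and DIU by diffSpliceDGE, with thresholds of 0.05 on the adjusted p and 0.1 on the size of dIF. Counting intervals and the floor of 3 counts cover counting error only. Replicates were distinct libraries (chi-square per degree of freedom 8.74 and 5.53).

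The alternatives were library size scaling, DESeq2 1.42.0, a replicate block, other filters and thresholds, summed isoforms, counts without nested genes, overlap-free isoforms, and leaving out each library. The fits were tested on simulated data. All 44 members are named by rule, and of each further list up to 6 of the called genes with the largest change. Not every marker that meets this rule is printed, and genes outside it are marked in the text. Members and lists were chosen with earlier results of these data known. Of the unmatched isoforms, which held 1.0% of counts, none was used.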

Additional observations from a re-analysis of the deposited data

How the results depend on the processing

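Of the 37 members tested, 21 kept their direction and their side of the threshold under every alternative run, and 28 kept their direction. Alternatives in which a member could not be tested did not count against it. H19, PEG3, ZIM2 and MKRN3 had no fit with a naïve library left out, and ZIM2 had none without PEG3. PLAGL1 and NAP1L5 had no fit with a primed library left out. With library size scaling the log2 fold change was 0.02 for IGF2, 0.32 for GNAS, 0.07 for BLCAP, 0.47 for INPP5F, 0.39 for HM13, 0.47 for NAA60, 0.12 for FAM50B, 0.04 for DNMT1 and 0.23 for KLF17, each of opposite sign to the TMM value. With the overlap-free isoform it was -0.01 for TRAPPC9, 1.37 for INPP5F and 0.19 for HM13, and without the nested gene 0.04 for INPP5F. With each library left out in turn it ranged from -0.07 (without naïve replicate 1) to 0.90 for ZDBF2, from -1.12 to 0.23 (without naïve replicate 1) for FAM50B, from -0.37 to 0.05 (without primed replicate 1) for INPP5F and from -0.27 to 0.08 (without primed replicate 1) for NAA60. The cause of these turns was not tested. The number of members called was 15 of 18 with overlap-free isoforms, where fewer could be tested, and 20 to 25 of the 33 to 35 that could be tested with a library left out, where the lone library is assumed to vary like the other state. IGF2 lost its call in DESeq2 (adjusted p = 0.0719) and HERC3 in DESeq2 (adjusted p = 0.17). With a log2 fold change beyond 1, 14 genes that set, keep or erase imprints and 217 member isoforms were called. DIU called 66 member isoforms with no dIF threshold, 0 with a dIF beyond 0.2 and 0 with fractions not divided by length.

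The replicate numbers were not shown to pair the libraries, since deviations of same-numbered libraries correlated at 0.0782 over 17615 genes with only 2 pairs. The fit with the replicate block called 28 members, 18 higher and 10 lower, where GNAS was the further call (adjusted p = 0.034). It also called 26 genes that set, keep or erase imprints, 43 markers, 362 member isoforms and 2 isoforms for DIU. Members under 20 counts in every library (USP29, KLF14, MAGEL2, HYMAI, PEG13, KCNK9, DIRAS3, NAP1L5) are limited by depth.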
